A study of Mus musculus with 32 samples.

Results

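The neurotrophin ligands and receptors described here were 9 genes, Bdnf, Ntf3, Ngfb, Ntrk2, Ntrk3, Sort1, Nrn1, Gdnf and Creb1, taken by name out of 18138 gene symbols on the array. Every probe that carried one of these symbols was taken, which gave 25 of the 25697 probes on an Illumina MouseRef-8 v2.0 beadchip. RNA came from the frontal cortex of 32 hybrid female mice from crosses of C57BL/6J and FVB/NJ, and each mouse had its own array. The 20 ethanol mice could drink 20% ethanol or water from a pair of bottles in limited daily sessions in the dark for 20 days. The other 12 mice were controls without ethanol, with nothing further given about what they drank. By the paper's methods the mice were killed 20 hours after the last session, and its discussion says that they could have been in acute withdrawal. Age was not given in the sources used here, and the intake of single mice was not used. The study asked which cortical transcripts differ after voluntary drinking.

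Neurotrophins are secreted growth factors that keep neurons alive and adjust their synapses. BDNF, the product of Bdnf, acts mainly through the TrkB receptor encoded by Ntrk2, neurotrophin-3 from Ntf3 acts through TrkC from Ntrk3, and nerve growth factor from Ngfb acts through TrkA. Sortilin, from Sort1, sorts pro-neurotrophins and serves as a co-receptor for them, and CREB, from Creb1, is a transcription factor that Trk signalling activates. Neuritin, from Nrn1, is a small membrane-anchored protein that neuronal activity and BDNF induce, and GDNF belongs to a separate family of growth factors that signal through Ret. Ntrk2 and Ntrk3 both give rise to receptors with the kinase domain and to truncated receptors without it.

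The probes on which the results rest are shown by the first 30 of their 50 bases, 5′ to 3′, because several of them are annotated to different transcripts of one gene. Capitals in the Sort1 probes mark bases that both of them hold; these probes overlap by 47 bases, so they are not independent readings of Sort1.
Bdnf, all variants: cttgctgtggtctcttgttggcagaaatgt
Nrn1: cttccacagtaccttgttttgatcatttcc
Ntrk2, all variants: ggtgggattctgcctgctggtgatgttgct
Ntrk2, variant 1: ggaaaacccgagtccttgacaaagacagga
Ntrk2, variant 2: tgcctctctaatgaaaagcgagctgtttga
Ntrk3, variant 1: ggggtgctggcagagggaaccacagcagcg
Ntrk3, variant 2, first probe: gatcatctagtcccatcaactcactatata
Ntrk3, variant 2, second probe: gcatctatgttgaggatgtcaatgtttatt
Sort1, first probe: AGACCTGTGTCAACCATACAGCAAAGGCAG
Sort1, second probe: caaAGACCTGTGTCAACCATACAGCAAAGG

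The deposited annotation placed the Bdnf probe at chr2:109566874-109566923 on the plus strand and the Nrn1 probe at chr13:36817901-36817950 on the minus strand. It placed the Ntrk2 probe for all variants at chr13:58979553-58979602 and the variant 1 probe at chr13:59230780-59230829, both on the plus strand. The Ntrk3 variant 1 probe was at chr7:85337503-85337552 and the first variant 2 probe at chr7:85449197-85449246, both on the minus strand. The genome build of these coordinates was not given in the sources used here. Of all member probes 3 had no coordinates, and of the rest 3 lay inside the span of their gene in the RefSeq table for GRCm38.p6, so no exon or UTR was read from them. "All variants" follows the array's own code for a probe shared by every isoform that it lists. A numbered or lettered variant names the transcript to which a probe is annotated, which does not show that the probe reads that variant alone.

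The arrays lay on 4 chips of 8. Chips 1 and 2 held ethanol mice, chip 4 held control mice, and chip 3 held 4 of each. Positions on a chip run from A to H; counted from A, the ethanol mice of chip 3 all sat at odd positions and its control mice at even ones, so treatment and position cannot be told apart on that chip. Between the other chips, treatment and chip cannot be told apart, and the comparison of all 32 arrays rests largely on those chips. Between 9480 and 11544 probes were detected per array at a detection p-value below 0.01, and the lowest number came from control mouse C66, whose median signal of 146.2 was also the lowest. Each array was a separate mouse. The comparison of all 32 arrays had no covariate, so the spread behind its p-values holds differences between mice, chips and positions together. In bulk cortex, fewer cells of a type and less RNA per cell cannot be told apart.

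Of the 25 probes, 11 from 6 genes were detected on at least 24 of the 32 arrays and entered the test, beside 10187 of all probes. Ntf3 was detected on 0 of 32 arrays, and so were both Gdnf probes. The Ngfb probes were detected on 13 and 4 arrays. Thus the cortical ligand that could be followed was Bdnf. The same limit held for further probes of tested genes. The probe annotated to Ntrk2 variant 2 and all 5 probes annotated to Creb1 variant A were detected on 0 arrays. Those annotated to Bdnf variant 1 were detected on 3 and 0 arrays, and the fourth Sort1 probe on 18. An undetected Bdnf probe at chr2:109566540-109566589 lay near the all-variants probe, which was detected on 32 arrays. An undetected Creb1 probe at chr1:64648365-64648414 likewise lay near the tested one at chr1:64650695-64650744, detected on 31. Nondetection by these probes is therefore not a reading of a single variant. Over the 14 probes outside the test, the median deposited signal ranged from 147.9 to 206.3 units. When all probes of the array were fitted, their ethanol minus control differences lay between -0.05 and 0.06 on the log2 scale with a lowest limma adjusted p of 0.157. At this signal a difference was not detectable, which does not show that these transcripts are absent from the tissue.

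**Figure D1:**
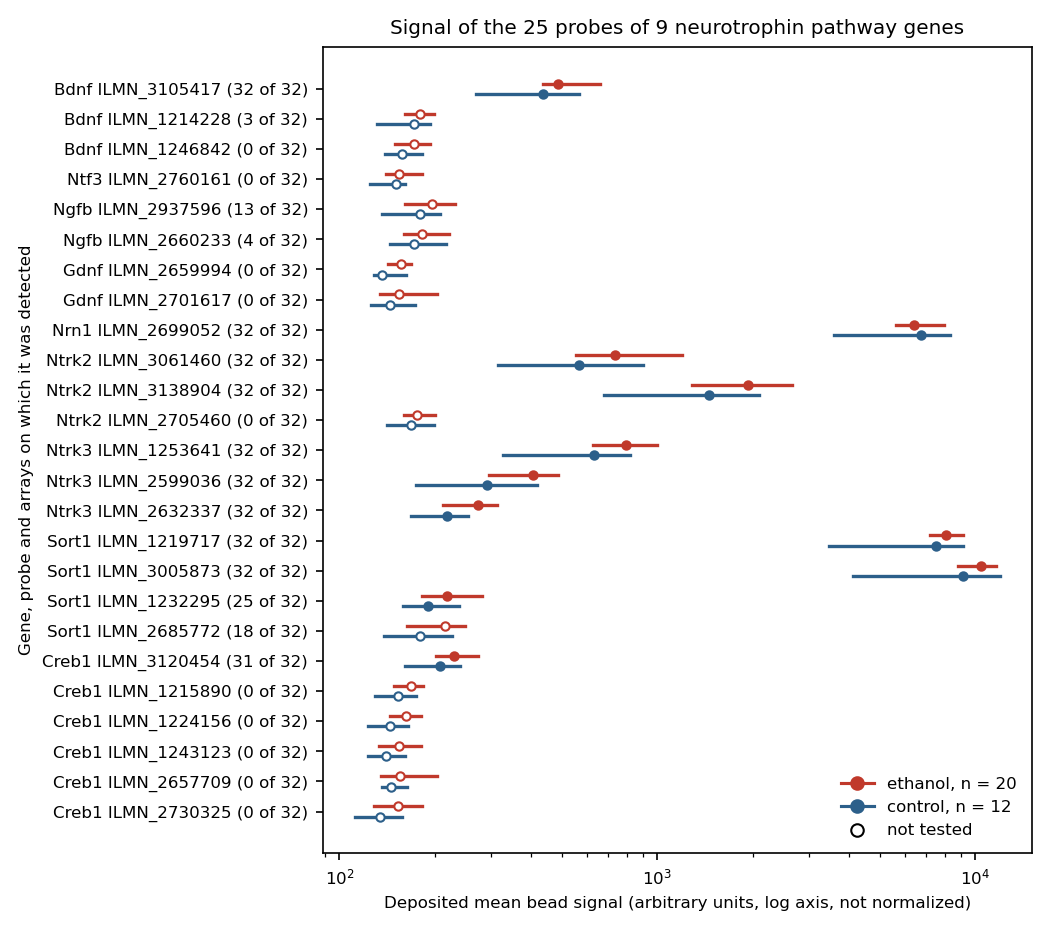
Deposited mean bead signal of each of the 25 probes (log axis, arbitrary units, before normalization), with the median as a point and the lowest to highest array as a line, for 20 ethanol and 12 control mice. Filled points are the 11 tested probes; the Ntf3, Gdnf, Ngfb and untested Creb1 probes have medians from 133.8 to 196.3 units, and levels of different probes are not comparable because each probe binds with its own efficiency.

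Across the 32 arrays, 2 of the 11 tested probes passed the study's threshold, an adjusted p below 0.01 (Benjamini-Hochberg over all tested probes). Nrn1 was lower and one Ntrk3 probe was higher in ethanol mice. Among all 10187 tested probes 841 passed, which is 8.26%, with 3.58% higher and 4.67% lower. The 2 probes are therefore described as single results, with no statement about the 11 as a set. At an adjusted p below 0.1, 3 member probes were higher, all of Ntrk3, and Nrn1 was lower, against 25.5% of all tested probes. The median difference of the 11 probes was 0.01 on the log2 scale, beside -0.003 over all tested probes.

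Nrn1 was the member that was lower in the ethanol group. Its normalized log2 value ranged from 12.375 through a median of 12.596 to 12.851 in the ethanol mice and from 12.589 through 12.818 to 13.112 in the control mice. The ranges overlapped, yet 10 of 20 ethanol mice lay below every control mouse, 6 of 12 control mice lay above every ethanol mouse, and 1 of 20 ethanol mice exceeded the control median. The mean was 12.611 ± 0.116 (SD, n = 20) against 12.821 ± 0.143 (SD, n = 12), a difference of -0.21 on the log2 scale (SE 0.045, limma adjusted p = 0.00152), or a fold of 0.865. Leaving out any 1 of the 32 mice kept the adjusted p between 0.000677 and 0.00401, whereas median scaling in place of quantile normalization gave the same direction without the call (-0.22, limma adjusted p = 0.0325).

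By chip, the Nrn1 difference had the same direction and a similar size. It was -0.18 on chip 3 (95% confidence interval -0.32 to -0.05, limma adjusted p = 0.072), where 4 ethanol mice ranged from 12.552 to 12.782 and 4 control mice from 12.763 to 12.883. Between the ethanol mice of chips 1 and 2 and the control mice of chip 4 it was -0.21 (SE 0.054, limma adjusted p = 0.00392), and Nrn1 was the 1 member among the 15.2% of tested probes that passed there. The 2 estimates differed by 0.02 (limma adjusted p = 0.922, 95% confidence interval of the difference -0.19 to 0.23). Within chips 1, 2 and 4, where treatment does not vary, the odd minus even difference of Nrn1 was -0.16 (SE 0.045, limma adjusted p = 0.0193), which missed the 0.01 threshold, and -0.06 under median scaling (limma adjusted p = 0.678). At like positions of chips 1 and 2 against chip 4, the ethanol mean minus the control mean was -0.13 at odd positions (12.547 ± 0.110, n = 8, against 12.674 ± 0.0588, n = 4) and -0.29 at even ones (12.653 ± 0.112, n = 8, against 12.946 ± 0.135, n = 4). With chip as a random block the difference was -0.21 (limma adjusted p = 0.029), with chip as a fixed block -0.19 (limma adjusted p = 0.228), and with position parity added it was -0.03 (limma adjusted p = 0.957), a fit that rests on the 8 mice of chip 3 and on the position effect of the other chips.

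Bdnf did not pass in the comparison of all mice, and its difference had opposite signs within and between chips. The normalized log2 value ranged from 8.671 through 8.891 to 9.270 in ethanol mice and from 8.571 through 8.988 to 9.207 in control mice, and the ranges overlapped, with 3 ethanol mice above and 2 control mice below the range of the other group. The difference was -0.01 (limma adjusted p = 0.964), with a 95% confidence interval from -0.13 to 0.12 on the log2 scale.

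On chip 3 alone, Bdnf was higher in ethanol mice. The 4 ethanol mice had normalized log2 values of 9.042 (A46), 9.228 (A47), 9.262 (A49) and 9.018 (A50), and the 4 control mice had 8.929 (C52), 8.854 (C54), 8.571 (C55) and 8.657 (C56). All ethanol mice lay above all control mice, a pattern that 4 of the 11 member probes and 15.2% of all tested probes showed on this chip in either direction. The difference was 0.39 (SE 0.083, limma adjusted p = 0.0069), a fold of 1.31, and Bdnf was the 1 member among the 3.29% of tested probes that passed there. Between the other chips the sign was the opposite: Bdnf was 8.810 ± 0.070 on chip 1 and 8.956 ± 0.193 on chip 2 (ethanol, n = 8 each) and 9.033 ± 0.0901 on chip 4 (control, n = 8), a difference of -0.15 (SE 0.055, limma adjusted p = 0.0406). This difference missed the 0.01 threshold, and under median scaling it was -0.09 (limma adjusted p = 0.39).

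The effect on chip 3 exceeded the effect between the other chips by 0.53 (SE 0.106, limma adjusted p = 0.00178). Of all tested probes 3.49% passed this test of the difference, and Bdnf was the 1 member. Among the control mice, those of chip 3 were lower than those of chip 4 by 0.28 (limma adjusted p = 0.0136), which missed the 0.01 threshold. Odd and even positions differed by 0.03 for Bdnf (limma adjusted p = 0.753). On chip 3 the call was lost without 5 of its 8 mice in turn, with adjusted p-values from 0.00319 to 0.0314 and differences from 0.33 to 0.45, with the spread shared by all chips (0.38, limma adjusted p = 0.0198), with median scaling (0.36, limma adjusted p = 0.0177) and with normexp background correction (0.54, limma adjusted p = 0.0314).

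Marker lists differed between the groups of chip 3 as well, where treatment and position cannot be told apart. Of all tested probes 3.29% passed there. All 5 tested olfactory bulb markers of the 8 listed were higher in ethanol mice there, with a median difference of 0.68, and 3 of them passed. Their summed level, a mean z-score over the 5 genes, ran from 0.00414 to 0.690 in the 4 ethanol mice and from -1.23 to -0.13 in the 4 control mice, with no overlap. The markers that passed were Pcdh21, Calb2 and Doc2g, at 1.44, 1.27 and 0.68 (limma adjusted p = 0.000692, 0.0016 and 0.00216). Eomes and Tbx21 of the same list did not reach the detection needed for the test. Of 11 tested oligodendrocyte markers, 9 were lower on chip 3, with a median of -0.36, and 1 passed; the summed levels overlapped, at -0.71 to -0.18 against -0.61 to 1.89. Endothelial markers were higher for 6 of 7 genes, with a median of 0.07, and Cldn5 passed; their summed levels did not overlap, at 0.138 to 0.507 against -0.76 to 0.0116. Of 9 astrocyte markers 6 were higher, with a median of 0.07, and Aqp4 and Slc1a3 passed; their summed levels overlapped, at -0.03 to 0.424 against -0.60 to 0.109. Of 8 neuronal markers 4 were higher and 4 lower; Gad1, of inhibitory neurons, differed by 0.58 and Slc17a7, of excitatory neurons, by -0.46 (limma adjusted p = 0.000937 for each), and the summed levels overlapped, at 0.0275 to 0.289 against -0.16 to 0.723. No microglial, blood or striatal marker passed on chip 3, and their summed levels overlapped. Of the choroid plexus markers, 0 of 5 were detected widely enough to be tested. Within chips 1, 2 and 4, where treatment does not vary, the median odd minus even difference was 0.34 for the olfactory bulb and -0.14 for the oligodendrocyte markers. For the endothelial, astrocyte and neuronal markers it was -0.007, -0.02 and -0.04. The part of position in the marker differences of chip 3 was not tested. Nor was the part of these marker differences in the chip 3 values of Bdnf, Nrn1 and Ntrk3.

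Ntrk2, which encodes the BDNF receptor TrkB, did not pass in any comparison at the 0.01 threshold. The probe for all variants ranged from 10.309 through 10.786 to 11.142 in ethanol mice and from 10.316 through 10.678 to 10.964 in control mice. The variant 1 probe ranged from 9.155 through 9.491 to 9.984 and from 9.020 through 9.356 to 9.792. Both pairs of ranges overlapped widely, although 14 and 16 of 20 ethanol mice exceeded the control median. The differences were 0.11 (95% confidence interval -0.02 to 0.25, limma adjusted p = 0.231) and 0.10 (-0.04 to 0.25, limma adjusted p = 0.338).

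Within chip 3 the Ntrk2 differences were -0.06 and -0.03 (limma adjusted p = 0.697 and 0.837). Between the other chips they were 0.20 and 0.19 (limma adjusted p = 0.0416 and 0.0705). The control mice of chip 3 were above those of chip 4 for both probes, by 0.25 and 0.31 (limma adjusted p = 0.0979 and 0.0533), an order opposite to that of Bdnf in the same mice. Ntrk2 was among the more variable transcripts of the array: the SD between mice of one chip and treatment was 0.187 and 0.20, at percentiles 94.8 and 96.2 of all tested probes, whose median SD was 0.110.

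**Figure D2:**
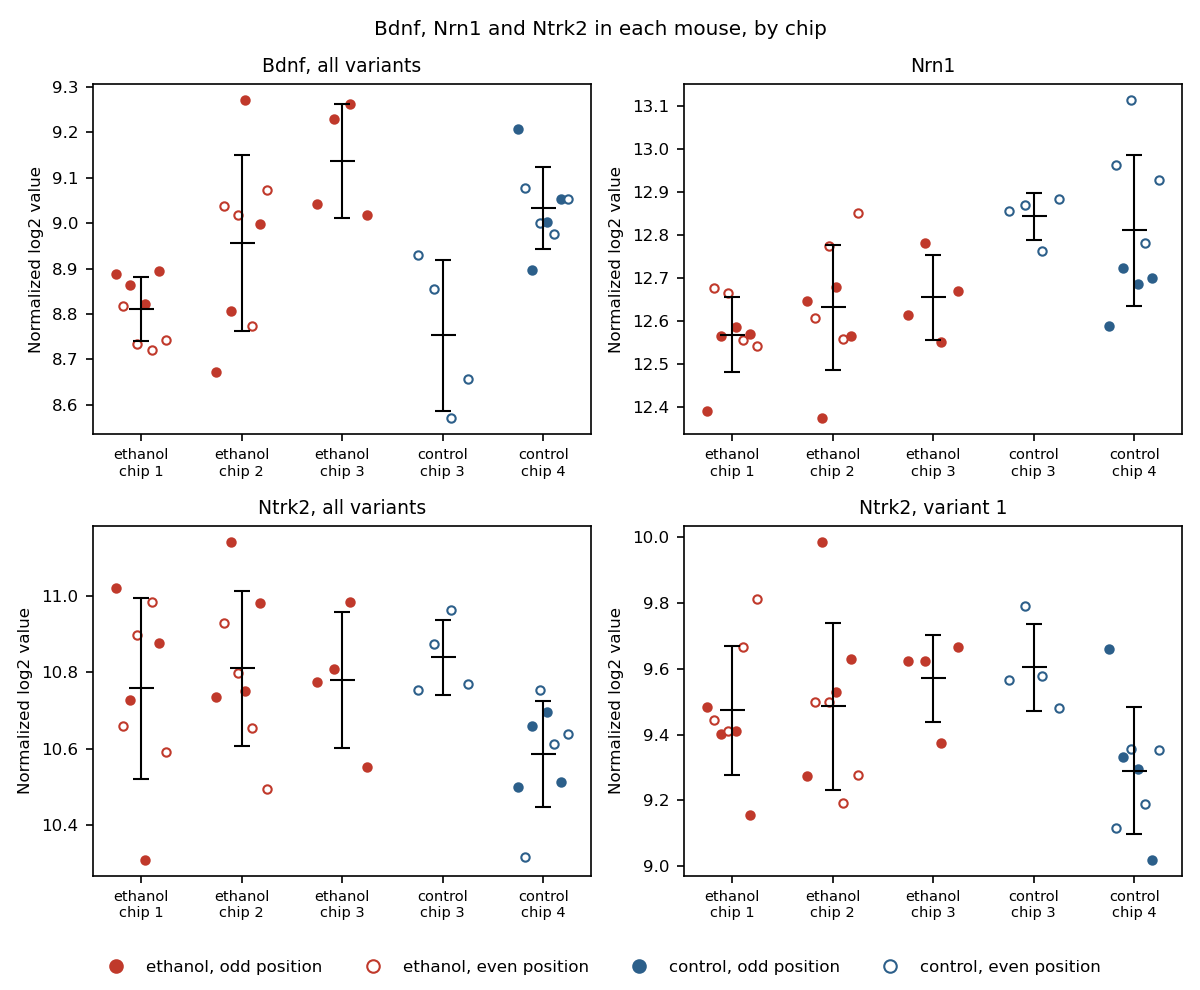
Normalized log2 value of Bdnf, Nrn1 and both tested Ntrk2 probes in each of 32 mice, by chip and treatment, with the mean and SD of each set; filled points are odd and open points even positions. On chip 3 the 4 ethanol mice lie above the 4 control mice for Bdnf (means 9.137 and 8.753), while for Nrn1 the ethanol sets of all 3 chips have means of 12.568 to 12.655 and the control sets of 12.810 and 12.843.

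Ntrk3, which encodes the neurotrophin-3 receptor TrkC, was higher in ethanol mice at all 3 probes, and 1 of them passed. The first variant 2 probe ranged from 8.271 through 8.625 to 8.989 in ethanol mice and from 8.096 through 8.325 to 8.825 in control mice. The ranges overlapped, with 18 of 20 ethanol mice above the control median and 5 of 12 control mice below every ethanol mouse. Its mean was 8.605 ± 0.185 (SD, n = 20) against 8.355 ± 0.202 (SD, n = 12), a difference of 0.25 (SE 0.065, limma adjusted p = 0.00654), or a fold of 1.19.

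The other Ntrk3 probes gave smaller positive differences that did not pass. The variant 1 probe ranged from 9.102 through 9.525 to 9.768 in ethanol mice and from 9.183 through 9.324 to 9.703 in control mice, a difference of 0.15 (SE 0.056, limma adjusted p = 0.0651). The second variant 2 probe ranged from 7.885 through 8.151 to 8.302 and from 7.855 through 8.034 to 8.178, a difference of 0.11 (SE 0.041, limma adjusted p = 0.0542). Their ranges overlapped too, with 19 and 16 of 20 ethanol mice above the control median.

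On chip 3 all 4 ethanol mice lay above all 4 control mice at each Ntrk3 probe, which makes up the other 3 of the 4 member probes without overlap. For the first variant 2 probe the ethanol values were 8.517 to 8.693 and the control values 8.311 to 8.426, a difference of 0.27 (SE 0.062, limma adjusted p = 0.0127). The variant 1 probe and the second variant 2 probe differed by 0.22 and 0.18 (limma adjusted p = 0.0383 and 0.0791). Between the other chips the differences were 0.26 for the first variant 2 probe (limma adjusted p = 0.0138), 0.11 for variant 1 (limma adjusted p = 0.244) and 0.09 for the second variant 2 probe (limma adjusted p = 0.193).

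Ntrk3 differed by position on the chip too. Within chips 1, 2 and 4 odd positions exceeded even ones by 0.29 (SE 0.059, limma adjusted p = 0.00254) at the first variant 2 probe, the 1 member among the 3.7% of tested probes that passed this test. At variant 1 and at the second variant 2 probe the position difference was 0.18 and 0.16 (limma adjusted p = 0.0451 and 0.0104). At like positions of chips 1 and 2 against chip 4, the first variant 2 probe was 8.734 ± 0.149 (n = 8) against 8.502 ± 0.266 (n = 4) at odd positions and 8.457 ± 0.152 (n = 8) against 8.178 ± 0.0676 (n = 4) at even ones, which are differences of 0.23 and 0.28. With position parity as a covariate over 32 arrays the difference was 0.19 (limma adjusted p = 0.013), and with chip and parity together it turned to -0.03 (limma adjusted p = 0.96). The call at this probe was also lost without control mice C60, C63, C64, C65 or C66, each left out in turn, with adjusted p-values up to 0.0163, and with median scaling (0.26, limma adjusted p = 0.0239) or a random chip block (0.25, limma adjusted p = 0.0587). Median scaling also ended the position call (0.32, limma adjusted p = 0.0168).

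**Figure D3:**
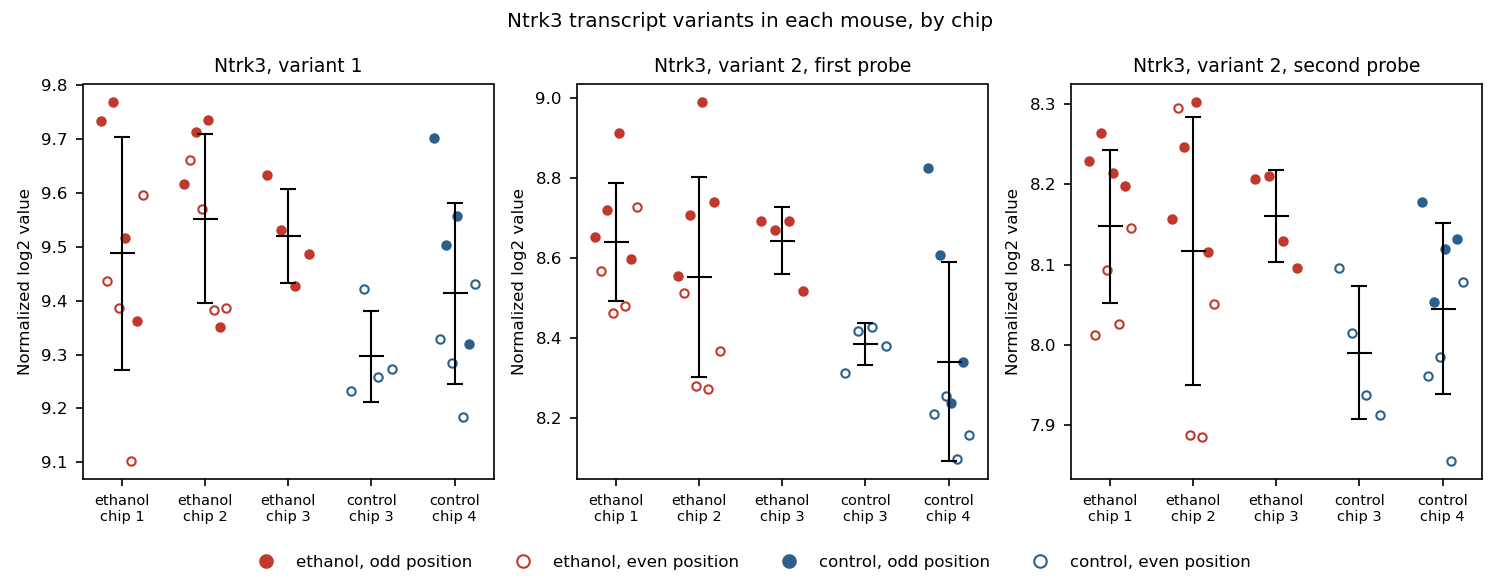
Normalized log2 value of the 3 Ntrk3 probes in each of 32 mice, by chip and treatment, with the mean and SD of each set; filled points are odd and open points even positions. On chip 3 the ethanol mice, all at odd positions, lie above the control mice, all at even positions; on chips 1, 2 and 4 filled points also tend to lie above open ones, by 0.16 to 0.29 on average.

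No log ratio between probes of a receptor gene differed beyond its spread, which does not show that the variants kept their proportions. The log2 ratio of Ntrk3 variant 1 to the first variant 2 probe was 0.915 ± 0.190 in ethanol mice and 1.02 ± 0.156 in control mice, a difference of -0.10 (permutation test, two-sided p = 0.117, adjusted over 3 ratios 0.352). Against the second variant 2 probe the ratio differed by 0.03 (permutation p = 0.467, adjusted 0.7). For Ntrk2, variant 1 to all variants differed by -0.01 (permutation p = 0.896, adjusted 0.896). The probe for all variants also reads variant 1, and the variant 2 probe was detected on 0 arrays. Single Ntrk2 variants were therefore not compared with each other. On chip 3 the 3 ratios differed by -0.04, 0.05 and 0.03, in the same order (exact permutation p = 0.6, 0.543 and 0.886). Between the other chips they differed by -0.15, 0.02 and -0.01. The test over all mice shuffled treatment without regard to chip. These ratios carry each probe's own binding efficiency, so their sizes are no shares of transcripts.

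Across mice, the 3 Ntrk3 probes moved together. After each value was centred on the mean of its chip and treatment, variant 1 correlated with the 2 variant 2 probes at r = 0.571 and 0.656 (rho 0.582 and 0.671), and these correlated with each other at r = 0.667 (rho 0.629). The permutation p-values within chip and treatment, adjusted over 12 pairs, were 0.00708, 0.0018 and 0.00306 for r and 0.00868, 0.00288 and 0.00516 for rho. Without the 2 arrays farthest from the median, r was 0.480, 0.622 and 0.601, and within single chips r ranged from 0.045 to 0.810. The lowest r of each pair came from chip 3, at 0.361, 0.299 and 0.045. There, centring also removed odd or even position. On chips 1, 2 and 4 it did not, and these probes differed by position there by 0.16 to 0.29. The part of position in these correlations was not tested. The Ntrk2 pair reached r = 0.296 (rho 0.30, adjusted permutation p = 0.287 and 0.29), and within single chips it ran from -0.396 to 0.883. Bdnf correlated with Ntrk2 at r = -0.080 (rho -0.054, adjusted permutation p = 0.687 and 0.779), and r of Bdnf with Nrn1, Ntrk3, Sort1 and Creb1 lay between -0.149 and 0.234, none of which passed. Under median scaling the Ntrk2 pair (r = 0.506, adjusted permutation p = 0.0165) and Bdnf with Nrn1, Ntrk3 and Sort1 passed 0.05 (r = 0.505, 0.455 and 0.652, adjusted permutation p = 0.0243, 0.0249 and 0.00115).

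Sort1 and Creb1 did not pass in any comparison either. The brightest Sort1 probe ranged from 13.143 through 13.269 to 13.361 in ethanol mice and from 13.103 through 13.226 to 13.462 in control mice. Its difference was 0.001 (95% confidence interval -0.07 to 0.07, limma adjusted p = 0.984), and the other Sort1 probes differed by -0.02 and 0.01 (limma adjusted p = 0.784 and 0.896). The overlapping pair of Sort1 probes correlated at r = 0.408 across mice (rho 0.331, adjusted permutation p = 0.105 and 0.253), and at r = 0.860 under median scaling (adjusted permutation p = 0.00024). Their treatment differences had opposite signs, at -0.03 and 0.12 on chip 3 (limma adjusted p = 0.776 and 0.238). Between the other chips they were 0.02 and -0.06 (limma adjusted p = 0.758 and 0.301). Creb1 ranged from 7.788 through 7.980 to 8.099 and from 7.873 through 7.982 to 8.064, a difference of 0.001 (95% confidence interval -0.06 to 0.06, limma adjusted p = 0.989). The SD of Creb1 between mice of one chip and treatment, 0.069, lay at percentile 2.2 of all tested probes, and the probe was detected on 31 of 32 arrays. Its median deposited signal was 229.6 units in ethanol and 207.6 units in control mice, beside medians of up to 206.3 among the untested probes. At so low a signal, a small SD and a narrow interval do not show that Creb1 was unchanged.

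**Figure D4:**
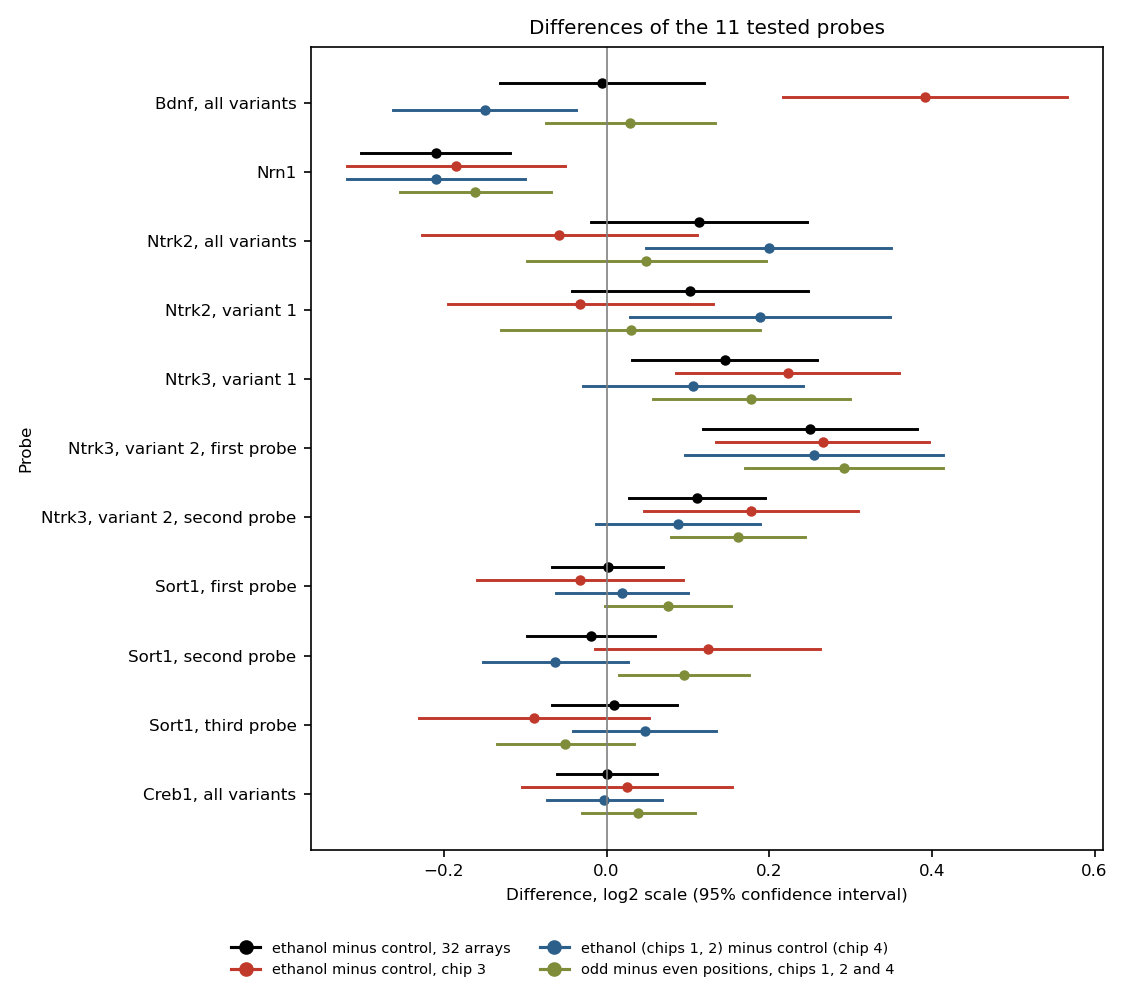
Difference of each of the 11 tested probes on the log2 scale with its 95% confidence interval, for ethanol minus control over 32 arrays, on chip 3 alone and between chips 1 and 2 and chip 4, and for odd minus even positions. Nrn1 lies below 0 in all 3 treatment contrasts, Bdnf lies at 0.39 on chip 3 and at -0.15 between the other chips, and the Ntrk3 intervals for treatment and for position overlap.

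Several genes downstream of CREB and TrkB were lower in ethanol mice. Of 22 tested activity-regulated targets, each read by its brightest probe, 7 were lower and 0 higher at an adjusted p below 0.01, beside 8% of 7926 genes (2.99% higher, 5.01% lower). The list's median difference was -0.10 and that of all genes -0.01. The list was chosen with earlier results of these data known, so its count is given as a description. Vgf, a secreted neuropeptide precursor that BDNF induces, differed by -0.55 (SE 0.083, limma adjusted p = 4.77e-05). Arc, a synaptic immediate early gene, differed by -0.50 (SE 0.112, limma adjusted p = 0.00206). Gadd45b, a stress-response and demethylation factor, and Fosb, an AP-1 transcription factor, differed by -0.17 and -0.15 (limma adjusted p = 0.00279 and 0.00284), and the clock gene Per1 by -0.27 (limma adjusted p = 0.00341). On chip 3 these 5 genes differed by -0.41, -0.24, -0.03, -0.05 and -0.41, in the order given. Treatment and position cannot be told apart on that chip. Within the other chips, where treatment does not vary, their odd minus even differences were -0.30, -0.24, -0.03, -0.006 and -0.15, in the same order. The part of position in the chip 3 values of these genes was not tested. The count fell to 1 lower gene under median scaling and with chip as a random block, and to 0 with chip as a fixed block, with or without position parity.

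**Figure D5:**
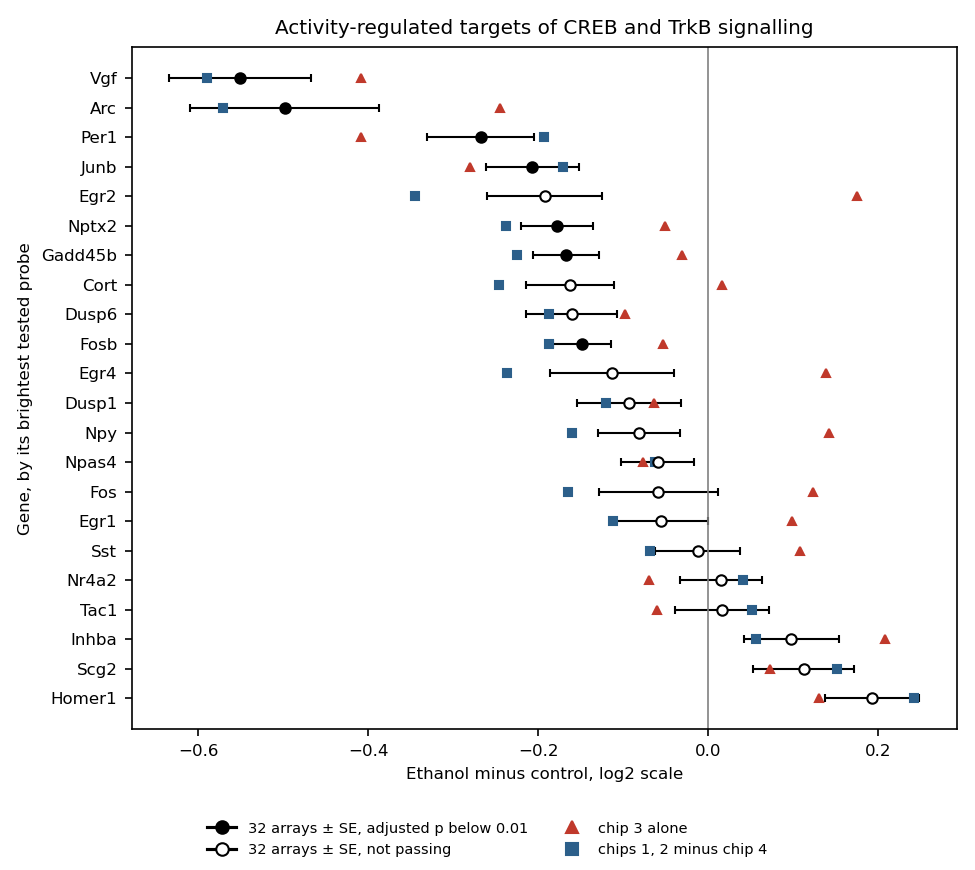
Ethanol minus control difference on the log2 scale of 22 activity-regulated genes, over 32 arrays with the SE (filled where the adjusted p was below 0.01), on chip 3 alone (triangles) and between chips 1 and 2 and chip 4 (squares). Vgf and Arc lie lowest, at -0.55 and -0.50, and several genes that lie below 0 between chips, such as Egr2 at -0.34, lie above 0 on chip 3, at 0.18 for Egr2.

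Genes between receptor and nucleus that passed lay in both directions. The counts given here, at an adjusted p below 0.01, stand beside 8% of all 7926 tested genes. Of 28 tested Trk adaptors and kinases 2 were higher and 2 lower. Among them the MAP kinase kinase Map2k2 differed by 0.28 (limma adjusted p = 0.000166), the Rap1 exchange factor Rapgef1 by -0.34 (limma adjusted p = 0.00362) and the small GTPase Hras1 by -0.17 (limma adjusted p = 0.00347). The list's median was 0.03. With chip as a random block 1 gene of this list was higher and 0 lower. Under median scaling and with chip as a fixed block 0 passed. Of 11 tested CREB family members and coactivators 1 was lower, the CREB coactivator Crtc1, at -0.19 (limma adjusted p = 0.00715). Among 5 tested genes of proneurotrophin processing 1 was higher, Serpini1, which encodes neuroserpin, an inhibitor of tissue plasminogen activator, at 0.29 (limma adjusted p = 0.000601), although on chip 3 its difference was -0.03. In the CREB and processing lists 0 genes passed under median scaling and with chip as a fixed or random block. By the brightest probe, 0 of 10 tested partners of p75 and sortilin and 0 of 4 tested further ligands and receptors passed, while Hap1, a huntingtin-associated trafficking protein of the first list, passed at a dimmer probe. The lowest adjusted p-values among the brightest probes were 0.0247 for Lingo1, a co-receptor of the Nogo receptor complex, at -0.25, 0.0379 for the retromer subunit Vps35 at 0.19, 0.0229 for the sortilin relative Sorcs2 at -0.11 and 0.0894 for its relative Sorcs1 at 0.10. On chip 3 the differences were -0.43 for Lingo1 (limma adjusted p = 0.00188), -0.10 for Vps35, -0.11 for Sorcs2 and 0.01 for Sorcs1.

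Over all mice, the counts of cell type markers that passed stand beside 8% of all tested genes. By the brightest probe of each gene, 1 of 8 neuronal genes was lower and 1 of 9 astrocyte genes higher, and 0 of 11 oligodendrocyte, 12 microglial, 7 endothelial, 3 blood, 5 olfactory bulb and 3 striatal genes passed; the myelin gene Mbp passed at a dimmer probe. At an adjusted p below 0.1, 50% of neuronal, 42.9% of endothelial, 33.3% of astrocyte, 18.2% of oligodendrocyte and 16.7% of microglial genes passed. In the blood, olfactory bulb and striatal lists 0 passed, and among all genes 24.7% did. The summed levels of all 8 lists overlapped between the groups. The median difference was largest for the olfactory bulb list, at 0.23, and lay between -0.06 and 0.08 for the others.

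The genes most like each member across mice, after centring within chip and treatment, are given as a description over 32 arrays. For Bdnf they were Tbc1d20 (r = 0.755), Cdh8 (0.643) and Wdr37 (0.620), and those for Nrn1 included Atp6v1g2 (0.771) and Rell2 (0.756). For the Ntrk2 probe for all variants they were Mdk (0.705), Cyp4f15 (0.705) and Syt9 (0.702), and for Creb1 Wbp7 (0.639), Lysmd4 (0.612) and Nrf1 (0.612). For the first Ntrk3 variant 2 probe they were Synm (0.876), Cxxc4 (0.869) and Pgp (0.860), and for the brightest Sort1 probe the gene model LOC100046883 (0.777), Atxn2 (0.731) and H13 (0.692). No Trk receptor, ligand or Creb1 appeared among the genes most like another member. All these values share the arrays and their normalization.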

How the data were processed

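RNA of 32 mice was hybridised by the authors to Illumina MouseRef-8 v2.0 beadchips. The deposited table, which carries no normalization, gives for each probe and array a mean bead intensity, its bead standard error, a bead number and a detection p-value; the authors computed that p-value against negative control probes. Probe annotation, genes and coordinates were taken as deposited. The authors' methods name variance stabilization, quantile normalization and limma.

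From these intensities a variance-stabilizing transform was fitted per array to the mean and SE of the beads, values were rescaled to log2 and quantile-normalized, and a probe was kept where 24 or more of the 32 arrays detected it (detection p-value below 0.01). Tests used limma 3.58.1 in R 4.3.3 (lmFit, eBayes) with Benjamini-Hochberg adjustment over all tested probes, called at 0.01 and, more loosely, at 0.1. Treatment was fitted over 32 arrays without covariates, within chip 3, and as contrasts between chips. Log ratios and correlations used two-sided permutation tests (Python 3.11.15, 100000 resamples): treatment was shuffled over all 32 mice for the ratios, exactly within chip 3, and values were shuffled within chip and treatment for the correlations. The code was tested on simulated data. Groups follow the titles of the samples, and chip and position follow the labels. Array number limits the precision. Quantile normalization makes the arrays' distributions equal, which can shift probes where many truly change; median scaling was therefore an alternative, with other transforms, filters, blocks and left-out mice.

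The members and gene lists were chosen with earlier results of these data known. Named genes were all members and, of each list, up to 5 genes with an adjusted p below 0.01, or the 2 lowest where none passed; some results under this rule are not reported here. Marker lists were named for neurons, astrocytes, oligodendrocytes, microglia, endothelium, blood, olfactory bulb, striatum and choroid plexus.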

Additional observations from a re-analysis of the deposited data

Results flagged for a closer look

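In 3 of 55 sets of member values (each tested probe in each chip and treatment), the highest or lowest mouse stood apart from the rest by the 95% limit of Dixon's test, and chance alone gives about 1 in 20. The Ntrk2 variant 1 probe of ethanol mouse A49 on chip 3 was 9.375 on the log2 scale, while the other 3 mice of its set lay between 9.622 and 9.664. The first Ntrk3 variant 2 probe of ethanol mouse A50 on chip 3 was 8.517, against 8.669 to 8.693. The second Sort1 probe of control mouse C56 on chip 3 was 12.96, against 12.87 in the others. For Bdnf, the ethanol minus control difference on chip 3 exceeded that between the other chips by 0.5346 on the log2 scale (limma adjusted p = 0.00178). Under median scaling this excess was 0.46 (limma adjusted p = 0.0418).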

How the results depend on the processing

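The member probes called numbered 2 (Nrn1 and the first Ntrk3 variant 2 probe) with log2 of the signal, normexp background correction, probes detected on all arrays and array weights. They numbered 1, Nrn1, with all probes of the array, with odd or even position as a covariate and without chip 3, and 0 with median scaling, chip as a fixed or random block, and chip with position. All tested probes called numbered 106 with median scaling, 21 with chip as a fixed block, 79 with chip as a random block and 2 with chip and position, against 841. Leaving out each mouse gave 1 to 2 member probes and 578 to 1016 of all probes, the lowest without C66. On chip 3, 335 probes became 19 with normexp, and 138 to 405 without 1 mouse, with 0 to 2 member probes called. Under median scaling, probes called between chips fell from 1551 to 655, for the difference of the effects from 356 to 85, for position from 377 to 0, and the correlated pairs rose from 3 to 8.

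Small differences changed sign. Bdnf was 0.0203 with median scaling, 0.385 with chip fixed, 0.0796 with chip random, 0.356 with chip and position and 0.012 with array weights. Creb1 was -0.00402 with normexp, -0.0091 with position, -0.0152 with chip and position and -0.0026 without chip 3. The Ntrk2 probes were -0.0602 and -0.0325 with chip fixed and -0.109 and -0.0621 with chip and position, where the first Ntrk3 variant 2 probe was -0.0327. The first Sort1 probe was -0.00609 with median scaling, -0.038 with chip fixed, -0.00717 with chip random, -0.0118 with position and -0.113 with chip and position. The second was 0.123, 0.0122 and 0.0273 and the third -0.0842, -0.011 and -0.0337 with chip fixed, chip random and chip with position. Leaving out 1 mouse gave -0.0392 to 0.0186 for Bdnf, -0.00758 to 0.0105 for Creb1, -0.0116 to 0.0208 for the first and -0.00339 to 0.0184 for the third Sort1 probe. The cause of these changes was not tested. No paired analysis was possible because mouse numbers do not repeat between groups.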
